A study of Mus musculus with 38 samples.

Results

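The genes described here are 10 regulators of entry into the cell cycle: the D-type cyclins Ccnd1, Ccnd2 and Ccnd3, their kinases Cdk4 and Cdk6, and the CDK inhibitors Cdkn1a, Cdkn1b, Cdkn2a, Cdkn2c and Cdkn2d. Members were all probe sets of the array whose annotation names exactly 1 of these symbols, which gave 26 of 45101 probe sets, and 10 of the 18194 genes with such a probe set. Of the 26 probe sets, 23 exceeded the median of their own array on at least 4 arrays and were tested, and they belong to 9 of the 10 genes. The 3 that did not pass were the only Cdkn2a probe set and the Ccnd2 probe sets 1416123_at and 1416124_at.

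The study hybridised total RNA of whole bone marrow from 38 mice to single-colour Affymetrix arrays, 1 per mouse. Of these, 34 mice had leukaemia started by a retrovirus that carried an MLL fusion oncogene, in which the front part of the histone methyltransferase MLL is joined to a partner protein. By fusion there were 9 mice with MLL-AF1p, 8 with MLL-AF10, 5 with MLL-GAS7, 5 with MLL-AF9 and 7 with MLL-ENL, and 4 normal marrows came from wild-type C57BL/6 mice of either sex. In all 5 cohorts the virus had been put into marrow progenitors that carried the c-kit receptor, which were given to lethally irradiated syngeneic C57BL/6 males or females, and the marrow was taken when the leukaemic mice were killed. Normal mice carried no fusion, and no irradiation, virus or transplant is given for them in the labels. The sources used here do not give ages, the viral promoter, or how many infected cell pools stand behind a cohort. In every group the RNA came from cryopreserved marrow cells extracted with Trizol. A leukaemic mouse is called by its labelled name, such as MLL-ENL_742.

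D-type cyclins bind and activate the kinases Cdk4 and Cdk6, which phosphorylate the retinoblastoma protein and its relatives and so release E2F factors that drive the genes of S phase. The INK4 inhibitors, here Cdkn2a, Cdkn2c and Cdkn2d, bind these kinases themselves, whereas the CIP/KIP inhibitors Cdkn1a and Cdkn1b bind cyclin and kinase complexes and act most strongly on Cdk2. In marrow, Cdk6 is known as the D-cyclin kinase of stem and progenitor cells, D cyclins as needed for their expansion, and the INK4 and CIP/KIP proteins as brakes that let blood cells leave the cycle as they mature.

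The clearest patterns were those of 3 genes. Cdk6 was higher in all 34 leukaemias than in all 4 normal marrows on each of its 3 probe sets, and Cdkn2d was lower in all 34. Such separations held for 3.57% and 4.77% of all probe sets tested. Cdkn2c was higher than normal in MLL-AF1p and MLL-AF10 marrow. It was lower than normal in MLL-AF9 and MLL-ENL marrow, a weaker result that did not hold without some single arrays. The upstream sequences of these 3 genes are shown here as the regulatory stretches of genes described in detail below. That of Cdkn1a, which rose in every cohort, is shown too. A RefSeq promoter table on build GRCm38.p6 held 8 of the 10 genes with 12 start sites, and Ccnd1 and Ccnd2 had no entry in it. Each sequence below is the 250 bases before a start site, written 5′ to 3′ on the strand of the gene. Capitals mark GGGCGG (a GC box), CACGTG (an E-box) or TTTCGCG (an E2F-type motif), searched on both strands, so that a GC box of the other strand appears as CCGCCC. None of these 3 motifs contains another.
Cdk6: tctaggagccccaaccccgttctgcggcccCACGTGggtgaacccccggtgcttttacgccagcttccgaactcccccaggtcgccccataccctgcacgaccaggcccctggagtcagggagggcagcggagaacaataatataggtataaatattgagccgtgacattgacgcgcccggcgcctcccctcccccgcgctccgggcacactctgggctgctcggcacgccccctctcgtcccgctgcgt
Cdkn1a: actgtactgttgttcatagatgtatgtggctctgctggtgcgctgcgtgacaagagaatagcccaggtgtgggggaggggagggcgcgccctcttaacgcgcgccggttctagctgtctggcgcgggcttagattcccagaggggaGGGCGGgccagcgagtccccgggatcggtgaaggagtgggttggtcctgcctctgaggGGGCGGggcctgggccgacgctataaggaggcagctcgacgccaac
Cdkn2c, upstream start: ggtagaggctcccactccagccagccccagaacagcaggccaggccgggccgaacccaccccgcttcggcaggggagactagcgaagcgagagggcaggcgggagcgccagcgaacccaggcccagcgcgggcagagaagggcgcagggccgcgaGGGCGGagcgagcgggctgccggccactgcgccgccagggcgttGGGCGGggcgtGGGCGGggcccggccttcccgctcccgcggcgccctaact
Cdkn2c, downstream start: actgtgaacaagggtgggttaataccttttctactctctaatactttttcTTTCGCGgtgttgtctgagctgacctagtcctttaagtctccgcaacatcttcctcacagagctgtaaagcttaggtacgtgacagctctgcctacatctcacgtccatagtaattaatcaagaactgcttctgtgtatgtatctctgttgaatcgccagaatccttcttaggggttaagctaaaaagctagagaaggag
Cdkn2d: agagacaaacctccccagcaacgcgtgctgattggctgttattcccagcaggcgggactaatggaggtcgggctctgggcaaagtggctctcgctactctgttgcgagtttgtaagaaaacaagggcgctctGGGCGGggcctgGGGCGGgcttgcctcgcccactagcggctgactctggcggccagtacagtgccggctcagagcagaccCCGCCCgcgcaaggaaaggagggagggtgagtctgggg
The Cdk6 stretch lies at chr5:3343643-3343892 on the plus strand and held 1 CACGTG. The Cdkn1a stretch lies at chr17:29093519-29093768 on the plus strand and held 2 GC boxes, while the stretch before its other start site, at chr17:29090729-29090978, held none of the 3 motifs and is not printed. Cdkn2c has 2 start sites on the minus strand of chromosome 4: the stretch at chr4:109666757-109667006 held 3 GC boxes, and the one at chr4:109665373-109665622 held no GC box and 1 TTTCGCG. The Cdkn2d stretch lies at chr9:21291210-21291459 on the minus strand and held 3 GC boxes, 1 of them on the other strand. Over all 32851 promoters of the table, 32.7% held GGGCGG, 6.02% held CACGTG and 0.703% held TTTCGCG within the same length. A match is only a run of letters and shows no binding.

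The deposited values are linear intensities that had been scaled to the same trimmed mean of 500 on each array. Median intensities ran between 129.2 and 208.3, so that values were compared as log2(intensity + 46.1) after a shift of each array to the same median. Statements on whether groups overlap refer to the deposited intensities. The share of all probe sets with a separation was counted only for all 34 leukaemias against all 4 normal marrows. Separations of single cohorts are given without such a share. A log2 change is the difference between group means on this scale, which understates changes of dim probe sets. Hoxa9 and Meis1, genes that MLL fusions are known to raise, were higher in the leukaemias by 4.95 and 3.70 on this scale, so the groups went with their labels. The arrays fell into 2 sets by the values of 2 probe sets, of Csnk1d and Map3k3, with 16 arrays in set 1 and 22 in set 2. Every cohort held arrays of both sets, in numbers of 4 and 5 for MLL-AF1p, 3 and 5 for MLL-AF10, 2 and 3 for MLL-GAS7, 3 and 2 for MLL-AF9 and 4 and 3 for MLL-ENL, and all 4 normal arrays were of set 2. The labels do not name this split. The 3′ to 5′ log2 ratio of the actin control probe sets, a sign of RNA integrity, averaged 0.314 ± 0.113 in the leukaemias and 0.136 ± 0.0625 in normal marrow (SD, n = 34 and 4, exact permutation p = 0.00583 over 73815 splits, 0.0117 adjusted over 2 ratios). The same ratio of the Gapdh control probe sets averaged -0.273 ± 0.106 in the leukaemias and -0.254 ± 0.0975 in normal marrow (SD, exact permutation p = 0.740, 0.740 adjusted). The splits took no account of the array sets, whose part in these ratios was not tested. The part of RNA integrity in the results was not tested.

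The marrows also differed in cell types. The summed intensity of 13 measured of 16 erythroid markers was between 2596 and 5125 in the leukaemias, against 120920 to 171878 in normal marrow, and 12 of these 13 fell, with a median log2 change of -5.88. All 13 measured B cell markers fell (median -3.31), with sums between 2005 and 9146 in the leukaemias, against 17214 to 35432 in normal marrow, and 8 of 9 megakaryocyte markers fell (median -3.15), with sums between 1250.2 and 3202 in the leukaemias, against 24264 to 36264 in normal marrow. Markers that fell also numbered 8 of 11 for T and NK cells (median -1.13), 6 of 7 for eosinophils and mast cells (-2.12), 6 of 11 for late neutrophils (-1.51) and 5 of 9 for stroma, with 1 stromal marker higher (-0.73). Their sums in leukaemias and in normal marrow were 1306 to 6423 against 6629 to 7707 for T and NK cells, 866 to 21973 against 25469 to 37519 for eosinophils and mast cells, 40182 to 554658 against 253800.1 to 415936 for late neutrophils and 1716 to 7547 against 6224 to 9711 for stroma. Of 9 monocyte markers 8 rose (median 1.43), with sums between 37532 and 132061 in the leukaemias, against 21497 to 34903 in normal marrow. The part of this shift in the members' values was not tested, and in whole marrow fewer cells of a type and less RNA per cell cannot be told apart.

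Groups were compared with limma, and p-values were adjusted by Benjamini and Hochberg over all 29004 probe sets tested. A probe set was called at an adjusted p under 0.05. In the mean of the 5 cohorts against normal marrow, 7 of the 23 member probe sets rose and 9 fell, while 24.9% of all probe sets tested rose and 12.1% fell. The median log2 change was 0.13 over the members and 0.14 over all probe sets. The probe sets that rose were all 3 of Cdk6, both of Cdkn1a and 2 of 3 of Cdk4, and those that fell were all 5 of Ccnd2, 2 of 3 of Ccnd3, 1 of 2 of Cdkn1b and the 1 of Cdkn2d. None of the 3 Ccnd1 probe sets and not the single one of Cdkn2c passed. Without the shift of the array medians the median of all probe sets was 0.01, and 53.6% of the calls were rises, against 67.3% with the shift. With quantile normalisation these values were 0.08 and 59.1%. Under both, 6 member probe sets rose and 9 fell. Replicates are separate mice, and their number limits the precision of every value below.

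**Figure D1:**
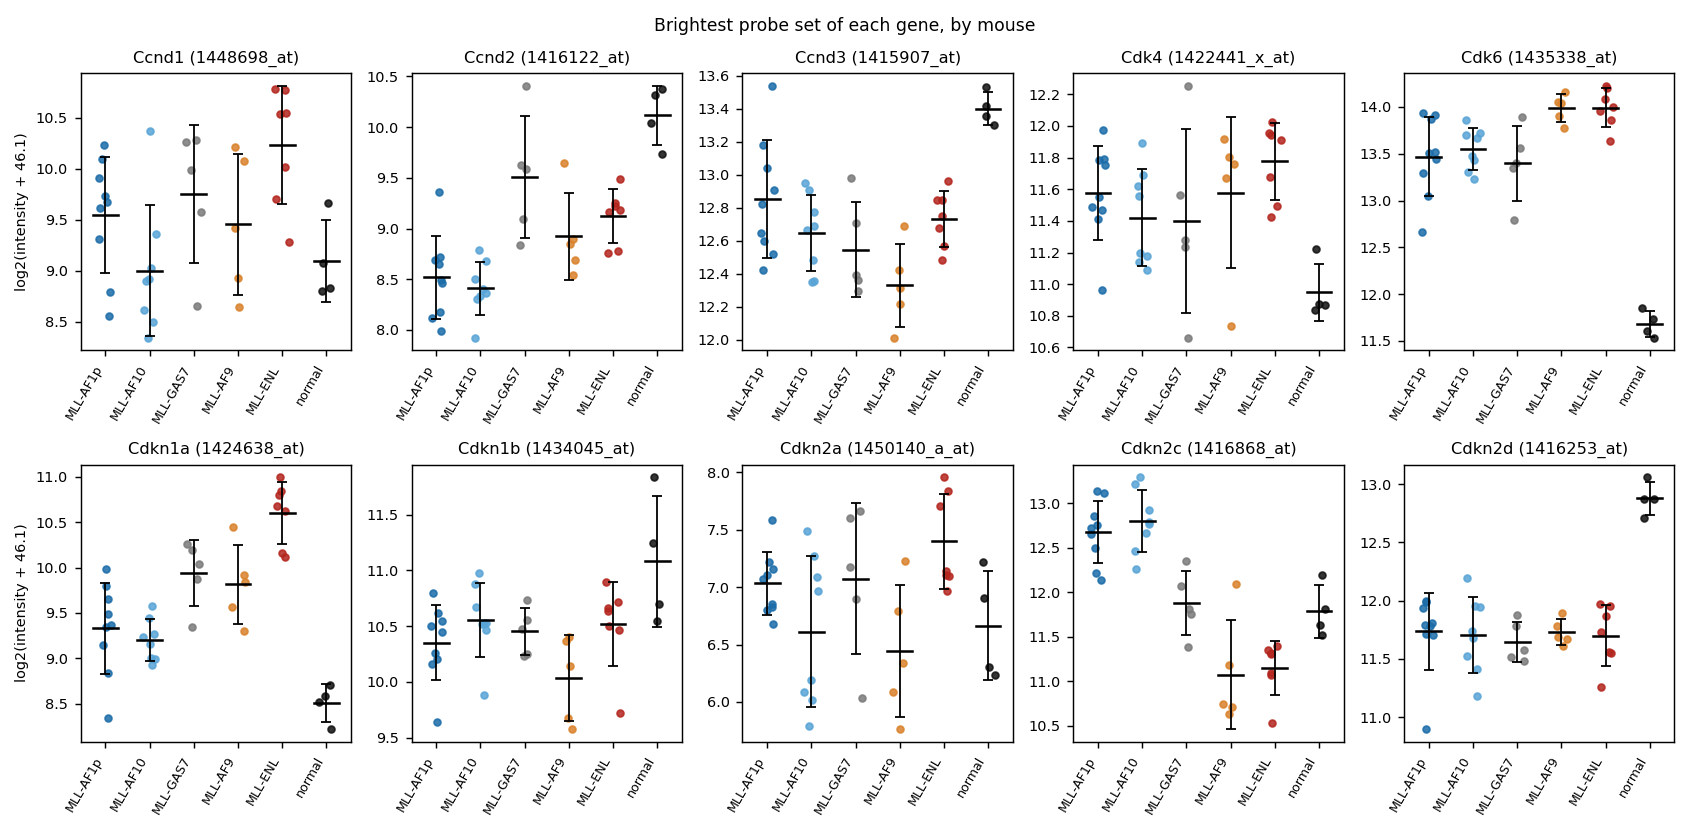
Values of the brightest tested probe set of each gene (Cdkn2a: its only probe set, below the filter) in every mouse, as log2(intensity + 46.1) after median alignment, with the groups MLL-AF1p, MLL-AF10, MLL-GAS7, MLL-AF9, MLL-ENL and normal from left to right. Each point is 1 mouse and the bars give the mean ± SD. All 34 leukaemias lie above the 4 normal marrows for Cdk6 and below them for Cdkn2d, 33 of 34 lie below them for Ccnd3, and for Cdkn2c the cohorts lie on both sides of normal marrow.

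The D-type cyclins did not move together: Ccnd2 and Ccnd3 were lower in the leukaemias, and Ccnd1 was called only in MLL-ENL marrow. Ccnd2, the D cyclin best known for its induction by growth factors in blood cells, had intensities on probe set 1416122_at between 188 and 586 (median 318) in MLL-AF1p marrow, between 213 and 376 (median 297) in MLL-AF10 marrow and between 349.8 and 594 (median 506) in MLL-ENL marrow. The 5 MLL-GAS7 mice had 493, 684, 916, 1333 and 437, the 5 MLL-AF9 mice 399.5, 414, 773, 316 and 361 and the normal mice 869.5, 1304, 1366 and 1159. Every MLL-AF1p, MLL-AF10, MLL-AF9 and MLL-ENL marrow lay below all normal marrows, and 32 of the 34 leukaemias did so, the others being mice MLL-GAS7_407 and MLL-GAS7_408. Over the 5 cohorts the probe set was 2.33-fold lower than in normal marrow (log2 change -1.22, SE 0.20, adjusted p = 6.98e-06).

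The other tested Ccnd2 probe sets fell as well. Probe set 1430127_a_at had intensities between 67.3 and 989 (median 189) in the leukaemias, against 701.5, 1217, 1020.5 and 1028.5 in the normal mice, and was 3.61-fold lower (adjusted p = 2.19e-06, limma). Probe set 1434745_at lay between 133 and 1231 (median 295) in the leukaemias, against 1284, 1603, 992 and 1012 in the normal mice, and was 3.05-fold lower (adjusted p = 1.65e-06). On each of these 33 of 34 leukaemias lay below all normal marrows, and the exception was mouse MLL-GAS7_408 on both. The 2 probe sets whose suffix marks probes that can match related transcripts, 1455956_x_at and 1448229_s_at, were 2.34-fold lower and 1.92-fold lower (adjusted p = 0.000229 and 0.00752), and 20 and 16 of 34 leukaemias lay below all normal marrows. The call of 1448229_s_at was lost without normal mouse 2 (log2 change -0.66, adjusted p = 0.0969). The 2 dim probe sets left out of the test had log2 changes of -0.94 and -0.91 in a fit without the filter (adjusted p = 0.00457 and 0.00237).

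Among the cohorts, Ccnd2 was highest in MLL-GAS7 marrow and the cohorts differed on 1416122_at and 1434745_at (moderated F test, adjusted p = 0.00273 and 0.007). Within array set 2 neither probe set passed the F test (adjusted p = 0.176 and 0.187). On the log2 scale 1416122_at averaged 9.51 ± 0.60 in MLL-GAS7, 9.12 ± 0.26 in MLL-ENL, 8.92 ± 0.43 in MLL-AF9, 8.52 ± 0.41 in MLL-AF1p, 8.41 ± 0.26 in MLL-AF10 and 10.12 ± 0.29 in normal marrow, which was highest (mean ± SD). Neighbouring cohorts in this order lay within the larger of their SDs. Against the mean of the other cohorts MLL-GAS7 marrow was 1.70-fold higher on 1416122_at (log2 change 0.76, SE 0.18, adjusted p = 0.0137) and 1.88-fold higher on 1434745_at (log2 change 0.91, SE 0.22, adjusted p = 0.0157). Without mouse MLL-GAS7_408 these changes were 0.54 and 0.66 (adjusted p = 0.121 and 0.128), and without mouse MLL-GAS7_407 the change of 1434745_at was 0.84 (adjusted p = 0.0625). Against normal marrow MLL-GAS7 was not called on 1416122_at (log2 change -0.61, adjusted p = 0.0813) and was called without mouse MLL-GAS7_408 (-0.83, adjusted p = 0.0127), while the other 4 cohorts were called, at -1.60 for MLL-AF1p, -1.71 for MLL-AF10, -1.19 for MLL-AF9 and -0.99 for MLL-ENL. The MLL-GAS7 call against normal on 1434745_at (-0.88, adjusted p = 0.0344) was lost without any 1 of 5 arrays (adjusted p between 0.0566 and 0.130).

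Ccnd3, the D cyclin known for its need in lymphocyte and granulocyte development, fell on its brightest probe set, 1415907_at. Its intensities were between 5239 and 10258.5 (median 6921) in MLL-AF1p marrow, between 4909 and 8135 (median 6304) in MLL-AF10 marrow and between 5589 and 7329.6 (median 6568.5) in MLL-ENL marrow, and 6553, 4606, 6527, 5433 and 8521 in the MLL-GAS7 mice, 5099.6, 5056, 4801, 3973 and 6450.4 in the MLL-AF9 mice and 10762, 11098, 13106.5 and 11895 in the normal mice. All 34 leukaemias lay below all 4 normal marrows, a separation seen in 4.77% of all probe sets tested. After median alignment this held for 33 of 34, since mouse MLL-AF1p_809 had 13.54 on the log2 scale, against 13.30 to 13.53 in normal marrow. The mean over the cohorts was 1.71-fold lower (log2 change -0.78, SE 0.15, adjusted p = 5.16e-05), and each cohort was called against normal, with log2 changes between -1.07 in MLL-AF9 and -0.55 in MLL-AF1p. The F test gave no call among the cohorts (adjusted p = 0.145).

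The other Ccnd3 probe sets were less steady. Probe set 1444323_at had intensities between 128 and 1179 (median 533) in the leukaemias, against 1371, 1223, 1060.1 and 1341 in the normal mice, and was 2.08-fold lower (log2 change -1.05, SE 0.30, adjusted p = 0.00469). Its level went with the array sets, and the change was -0.63 with the array set as a block and -0.60 within set 2 (adjusted p = 0.0157 and 0.0112). Its calls against normal in MLL-AF1p, MLL-AF10 and MLL-GAS7 were each lost without any 1 of 7 arrays. Probe set 1438805_at lay between 131 and 763 (median 346) in the leukaemias, against 257, 682, 743 and 328 in the normal mice, and did not pass (log2 change -0.22, 95% interval -0.77 to 0.33, adjusted p = 0.565).

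Ccnd1, the D cyclin of many epithelial tissues, varied widely between mice. On 1448698_at the intensities were between 362.5 and 1332.5 (median 688) in MLL-AF1p marrow, between 272 and 1216 (median 445) in MLL-AF10 marrow and between 547 and 1659 (median 1271) in MLL-ENL marrow. The MLL-GAS7 mice had 954, 1107, 458, 1205 and 761, the MLL-AF9 mice 960.0, 354.5, 1166, 618 and 433 and the normal mice 433, 782.1, 458 and 568. The leukaemias overlapped normal marrow in every cohort on this probe set, and the mean of the cohorts was not called (log2 change 0.50, 95% interval -0.11 to 1.12, adjusted p = 0.202). Nor were 1417419_at and 1417420_at (0.88 and 0.66, adjusted p = 0.214 and 0.192).

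In MLL-ENL marrow all 3 Ccnd1 probe sets were called against normal, and in the other cohorts none was. Probe set 1417420_at had intensities between 525.5 and 1413 (median 996) in MLL-ENL marrow, with normal mice lying between 277 and 376.5, so that all 7 MLL-ENL marrows lay above all normal ones, and it was higher than normal (limma, log2 change 1.59, SE 0.46, adjusted p = 0.00697). Probe set 1448698_at was 2.20-fold higher (adjusted p = 0.0122), and 1417419_at had a log2 change of 1.95 (adjusted p = 0.0163) and of 1.66 without normal mouse 4 (adjusted p = 0.0732). On 1448698_at the 4 MLL-ENL arrays of set 1 lay between 1271 and 1659 and the 3 of set 2 between 547 and 973, without overlap, and on 1417419_at their log2 means were 9.78 and 8.44, while all normal arrays were of set 2. Within array set 2 the log2 changes of MLL-ENL against normal were 1.24 on 1417420_at (adjusted p = 0.0186), 0.57 on 1448698_at (0.275) and 1.18 on 1417419_at (0.195), so that 1 of the 3 calls was kept. Against the other cohorts MLL-ENL marrow was 2.22-fold higher on 1417420_at (adjusted p = 0.0343), a call lost without any 1 of 6 MLL-ENL arrays (adjusted p between 0.0553 and 0.0771) and within array set 2 (log2 change 0.81, adjusted p = 0.256). The other 2 probe sets had log2 changes of 1.34 and 0.79 against the other cohorts and did not pass (adjusted p = 0.0731 and 0.0577).

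Among the cyclins and kinases Cdk6 had the largest rise. On 1435338_at the intensities were between 7487 and 16254 (median 10678) in MLL-AF1p marrow, between 9841.5 and 14177 (median 12413.5) in MLL-AF10 marrow and between 12266 and 18452 (median 15431) in MLL-ENL marrow. The MLL-GAS7 mice had 11865, 14026, 13019.8, 10957 and 7458, the MLL-AF9 mice 14277, 18297, 14271, 16510.1 and 16589.5 and the normal mice 3930.5, 3124, 3729 and 3338. The lowest leukaemia, an MLL-GAS7 marrow, was well above the highest normal marrow. The groups did not overlap on this or on either other Cdk6 probe set, which holds for 3.57% of all probe sets tested. The mean of the cohorts was 3.99-fold higher on 1435338_at (SE 0.16 on the log2 scale, adjusted p = 1.07e-12), 4.33-fold higher on 1455287_at (log2 change 2.11, SE 0.18, adjusted p = 7.23e-12) and higher on 1460291_at (log2 change 2.43, SE 0.21, adjusted p = 1.09e-11). On 1460291_at all 4 normal values lay below the medians of their arrays, so no fold is given, and its log2 change was between 1.74 and 2.79 over the settings tried, at pseudocounts of 150 and 16. Probe sets 1435338_at and 1455287_at are annotated to the same transcript and are not independent.

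The level of Cdk6 differed among the cohorts. Against normal marrow, the log2 change on 1435338_at was lowest for MLL-GAS7 (1.72) and 2.31 for MLL-AF9 and 2.31 for MLL-ENL. On 1435338_at the means were 13.99 ± 0.21 in MLL-ENL, 13.99 ± 0.15 in MLL-AF9, 13.55 ± 0.22 in MLL-AF10, 13.47 ± 0.42 in MLL-AF1p, 13.40 ± 0.40 in MLL-GAS7 and 11.68 ± 0.14 in normal marrow (log2, mean ± SD). Of these neighbours only MLL-AF9 and MLL-AF10, and MLL-GAS7 and normal, lay further apart than the larger of their SDs. The F test called all 3 probe sets (adjusted p = 0.0276 for 1435338_at, 0.0477 for 1455287_at and 0.0137 for 1460291_at). These calls were close to the threshold: 1435338_at lost its call without mouse MLL-ENL_760 or MLL-ENL_741 (adjusted p = 0.0563 and 0.0511), 1455287_at without any 1 of 28 arrays (0.0502 to 0.0841), and within array set 2 none of the 3 passed (0.0893 for 1435338_at, 0.0911 for 1455287_at and 0.292 for 1460291_at).

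On 1460291_at MLL-ENL marrow stood above and MLL-GAS7 marrow below the other cohorts. Its intensities were between 557 and 1166 (median 842) in MLL-ENL marrow and 824, 429, 313.5, 275 and 344 in the MLL-GAS7 mice, against 137, 118, 33.3 and 71.8 in normal mice. The log2 changes against normal were 3.01 in MLL-ENL and 1.86 in MLL-GAS7, on the scale with 46.1 added. Against the other cohorts the log2 changes were 0.73 in MLL-ENL (SE 0.17, adjusted p = 0.0144) and -0.71 in MLL-GAS7 (SE 0.20, adjusted p = 0.0332). Without mouse MLL-ENL_703 the first was 0.65 (adjusted p = 0.0574), and without mouse MLL-GAS7_407, MLL-GAS7_408 or MLL-GAS7_410 the second was -0.56, -0.60 or -0.65 (adjusted p = 0.191, 0.143 and 0.123).

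Cdk4, the D-cyclin kinase found in most dividing cells, had smaller changes. On 1422441_x_at the intensities were between 1665 and 4476 (median 2983) in the leukaemias, against 2510.4, 1815, 2023 and 2095 in the normal mice, and 25 of 34 leukaemias lay above all normal marrows. It was 1.52-fold higher (log2 change 0.60, SE 0.19, adjusted p = 0.0111), and its suffix marks probes that can match related transcripts. Probe set 1422439_a_at was 1.36-fold higher (adjusted p = 0.0407), a call lost without any 1 of the 4 normal arrays, with changes between 0.36 and 0.49 and adjusted p between 0.0531 and 0.167, and 1422440_at did not pass (log2 change 0.44, 95% interval -0.03 to 0.90, adjusted p = 0.135). Both called probe sets carry suffixes that were left out in 1 setting, and the Cdk4 probe set kept there is 1422440_at. Without the shift of the array medians, and also with quantile normalisation, 6 member probe sets rose instead of 7. Those of Cdk6 and Cdkn1a kept their calls, so at most 1 Cdk4 probe set was called under either scaling. By cohort, all 3 probe sets were called in MLL-ENL marrow (0.61, 0.73 and 0.83, adjusted p = 0.0172, 0.0303 and 0.0035). Of these calls, that of 1422440_at was lost without any 1 of 4 arrays (adjusted p between 0.0534 and 0.0792) and that of 1422439_a_at without normal mouse 3 (0.0700). Probe set 1422441_x_at was also called in MLL-AF1p (0.63, adjusted p = 0.0221, lost without any 1 of 3 arrays) and in MLL-AF9 (0.63, adjusted p = 0.0449, lost without any 1 of 7 arrays). The F test called none among the cohorts (adjusted p = 0.761, 0.3 and 0.558).

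**Figure D2:**
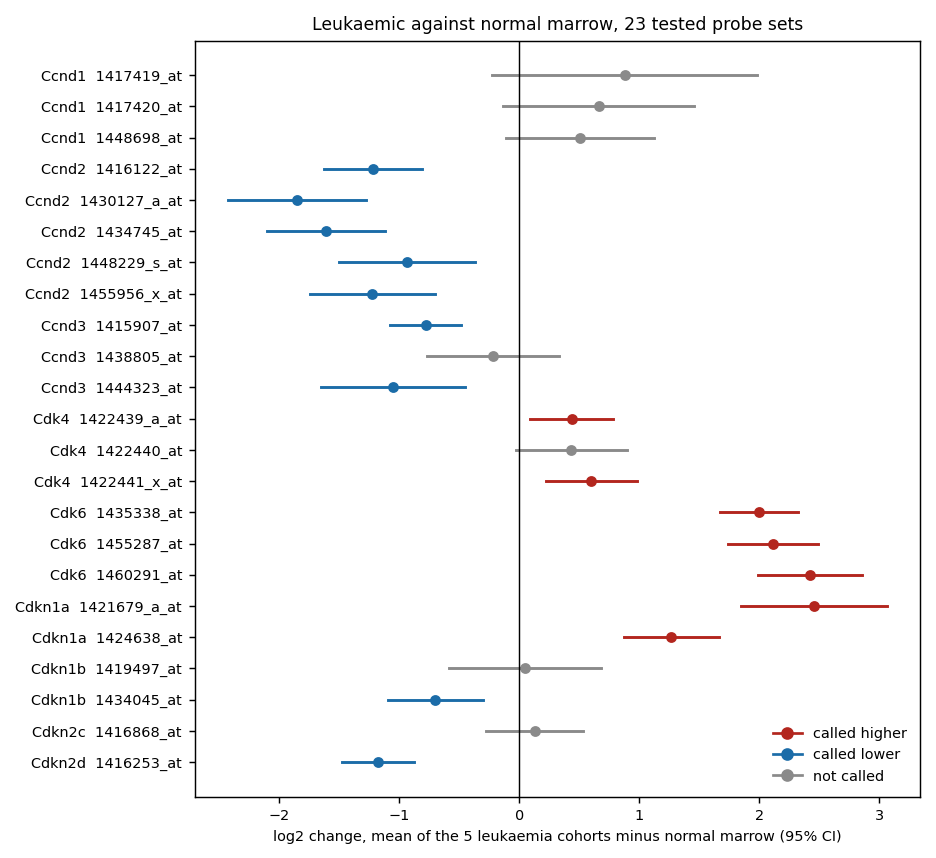
Log2 change of the 23 tested probe sets, mean of the 5 leukaemia cohorts minus normal marrow, with 95% intervals. Probe sets called higher are red, those called lower are blue and the others grey: Cdk6 and Cdkn1a lie to the right, Ccnd2, Ccnd3 1415907_at and Cdkn2d to the left, and Cdkn2c sits at 0.13.

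The CIP/KIP inhibitors parted: Cdkn1a rose in every cohort, and Cdkn1b fell on 1 of its 2 probe sets. Cdkn1a, the inhibitor best known as a target of p53, had intensities on 1424638_at between 330.5 and 990.5 (median 634) in MLL-AF1p marrow, between 442 and 676 (median 532) in MLL-AF10 marrow and between 1010.5 and 1944.5 (median 1459.9) in MLL-ENL marrow. The MLL-GAS7 mice had 878, 1037, 768, 1201 and 1069.7, the MLL-AF9 mice 1261, 712, 943, 843 and 573 and the normal mice 400.4, 329, 381 and 295. All leukaemias except MLL-AF1p_803 and MLL-AF1p_808 lay above all normal ones, and no MLL-ENL marrow overlapped normal marrow or any MLL-AF1p or MLL-AF10 marrow. How many of all probe sets separate MLL-ENL marrow in this way was not counted. The mean of the cohorts was 2.41-fold higher (log2 change 1.27, SE 0.20, adjusted p = 2.58e-06). On 1421679_a_at the intensities were between 193 and 1244 (median 589) in the leukaemias, against 279.7, 122.5, 31.2 and 16 in normal mice, with 30 of 34 above all normal marrows, and it rose (log2 change 2.46, SE 0.30, adjusted p = 2.83e-08). Of its 4 normal values 3 lay below the medians of their arrays, so no fold is given, and the log2 change was between 1.71 and 2.92 over the settings tried, at pseudocounts of 150 and 16.

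The rise of Cdkn1a was largest in MLL-ENL marrow on both probe sets. On 1424638_at the means were 10.60 ± 0.34 in MLL-ENL, 9.94 ± 0.36 in MLL-GAS7, 9.81 ± 0.43 in MLL-AF9, 9.33 ± 0.50 in MLL-AF1p, 9.20 ± 0.23 in MLL-AF10 and 8.51 ± 0.20 in normal marrow (log2, mean ± SD). Neighbours among MLL-GAS7, MLL-AF9, MLL-AF1p and MLL-AF10 lay within the larger of their SDs. The cohorts differed (F test, adjusted p = 2.84e-05 for 1424638_at and 0.0216 for 1421679_a_at), the second call being lost without mouse MLL-ENL_703 (0.0509) and both within array set 2, where 1424638_at had adjusted p = 0.0843. Against normal marrow MLL-ENL was 4.26-fold higher on 1424638_at, and MLL-AF10, the cohort with the smallest change, was 1.62-fold higher (adjusted p = 0.0167, or 0.0761 without normal mouse 4).

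Against the other cohorts, MLL-ENL marrow was 2.04-fold higher on 1424638_at (log2 change 1.03, SE 0.16, adjusted p = 0.000285), and within array set 2 it had a log2 change of 0.82 (adjusted p = 0.138). MLL-AF10 marrow was 1.65-fold lower (adjusted p = 0.0157), a call lost without mouse MLL-AF10_799A (0.0547). MLL-AF1p marrow was 1.47-fold lower (adjusted p = 0.039), and that call was lost without any 1 of 15 arrays (0.0501 to 0.155). On 1421679_a_at the MLL-ENL excess of 0.91 (adjusted p = 0.029) was lost without any 1 of 4 MLL-ENL arrays (0.0536 to 0.0760).

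Cdkn1b, the inhibitor that holds resting cells out of the cycle, fell on 1434045_at. Its intensities were between 959 and 1685 (median 1231) in MLL-AF1p marrow, between 993 and 1884 (median 1442) in MLL-AF10 marrow and between 785 and 1644 (median 1414) in MLL-ENL marrow, and 1642, 1069, 1475, 1406.5 and 1550.2 in the MLL-GAS7 mice, 1223, 1275, 1104, 696.5 and 757 in the MLL-AF9 mice and 3874, 2429, 1612 and 1845 in the normal mice. The 4 normal values spread widely, normal mouse 1 being the highest, and 28 of 34 leukaemias lay below all of them, or 22 after median alignment. It was 1.62-fold lower (log2 change -0.70, SE 0.19, adjusted p = 0.00425), and without normal mouse 1 the change was -0.45 (adjusted p = 0.0990). By cohort it was called in MLL-AF9 (-1.05, adjusted p = 0.00122) and MLL-AF1p (-0.73, adjusted p = 0.00973, or 0.122 without normal mouse 1), while MLL-AF10, MLL-GAS7 and MLL-ENL had -0.52, -0.63 and -0.57 and did not pass (adjusted p = 0.0692, 0.0606 and 0.0517). Probe set 1419497_at did not pass (log2 change 0.05, 95% interval -0.59 to 0.68, adjusted p = 0.925), with intensities between 44.1 and 612 (median 291) in the leukaemias, against 396, 409, 119 and 242 in normal mice, and its sign turned under several settings.

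The INK4 inhibitors Cdkn2c and Cdkn2d behaved differently from each other. Cdkn2d, an INK4 inhibitor found in many dividing and maturing cells, had intensities between 2353 and 3817.5 (median 3488) in MLL-AF1p marrow, between 2148 and 4539.7 (median 3293) in MLL-AF10 marrow and between 2368 and 3658 (median 3275) in MLL-ENL marrow. The MLL-GAS7 mice had 2973, 2664, 3535, 3552 and 3923, the MLL-AF9 mice 3259, 3770.0, 3313, 2994 and 3171 and the normal mice 9104, 6788, 8283 and 8486. All 34 leukaemias lay below all 4 normal marrows, as on 4.77% of all probe sets tested. The probe set was 2.26-fold lower (log2 change -1.17, SE 0.15, adjusted p = 5.36e-08), and the cohorts were close to each other, with log2 changes of -1.14 for MLL-AF1p, -1.17 for MLL-AF10, -1.23 for MLL-GAS7, -1.15 for MLL-AF9 and -1.18 for MLL-ENL. The F test gave adjusted p = 0.991, and cohort means lay between 11.65 ± 0.17 and 11.74 ± 0.33, against 12.88 ± 0.14 in normal marrow (log2, mean ± SD).

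Cdkn2c, an INK4 inhibitor known as a tumour suppressor in blood cells, split the cohorts on its single probe set, 1416868_at. The intensities were between 4853 and 8134 (median 6614.5) in MLL-AF1p marrow, between 4756 and 9546 (median 7063) in MLL-AF10 marrow and between 1415 and 2579 (median 2242) in MLL-ENL marrow. The MLL-GAS7 mice had 2599, 4795, 4453, 3488 and 4513, the MLL-AF9 mice 1557, 4343, 2324, 1590.4 and 1520.0 and the normal mice 4992, 3177, 3211 and 4045. No MLL-ENL marrow overlapped any MLL-AF1p, MLL-AF10, MLL-GAS7 or normal marrow, but after median alignment the highest MLL-ENL value was just above the lowest MLL-GAS7 value. The share of all probe sets with this separation was not counted. Of the MLL-AF9 mice 4 of 5 lay below all normal marrows and mouse MLL-AF9-305 lay within them. Of all 34 leukaemias 15 lay above and 12 below all normal marrows.

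Cdkn2c had no call in the mean of the cohorts (log2 change 0.13, 95% interval -0.28 to 0.53, adjusted p = 0.661) and the lowest F test p of the members (adjusted p = 2.9e-08). The means were 12.80 ± 0.35 in MLL-AF10, 12.68 ± 0.35 in MLL-AF1p, 11.88 ± 0.36 in MLL-GAS7, 11.15 ± 0.30 in MLL-ENL and 11.08 ± 0.61 in MLL-AF9, against 11.79 ± 0.30 in normal marrow (log2, mean ± SD). MLL-AF10 and MLL-AF1p did not differ beyond their spread, nor did MLL-GAS7 and normal, nor MLL-ENL and MLL-AF9. Against the other cohorts MLL-AF10 was 2.15-fold higher (log2 change 1.10, SE 0.15, adjusted p = 5.39e-05) and MLL-AF1p 1.93-fold higher (log2 change 0.95, SE 0.15, adjusted p = 0.000236). MLL-AF9 was 2.07-fold lower (log2 change -1.05, SE 0.18, adjusted p = 0.00138) and MLL-ENL 1.94-fold lower (log2 change -0.95, SE 0.16, adjusted p = 0.000674), while MLL-GAS7 did not pass (-0.05, adjusted p = 0.932).

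The difference among cohorts held under every setting tried, array set 2 alone included (F test, adjusted p = 0.00135). Within that set the changes against the other cohorts were 1.32 in MLL-AF10 (adjusted p = 0.00902), 0.90 in MLL-AF1p (0.0537), -1.28 in MLL-ENL (0.0219) and -0.70 in MLL-AF9, which had 2 arrays there (0.565). Against normal marrow MLL-AF10 was 2.01-fold higher and MLL-AF1p 1.85-fold higher (adjusted p = 0.000743 and 0.00235, limma). The calls below normal were weaker. MLL-AF9 was 1.64-fold lower (adjusted p = 0.0319), lost without any 1 of 5 arrays (0.0653 to 0.127) and within set 2 (-0.42, adjusted p = 0.411), and MLL-ENL was 1.55-fold lower (adjusted p = 0.0331), lost without mouse MLL-ENL_742 (0.0783) or normal mouse 1 (0.145) or 4 (0.0687).

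**Figure D3:**
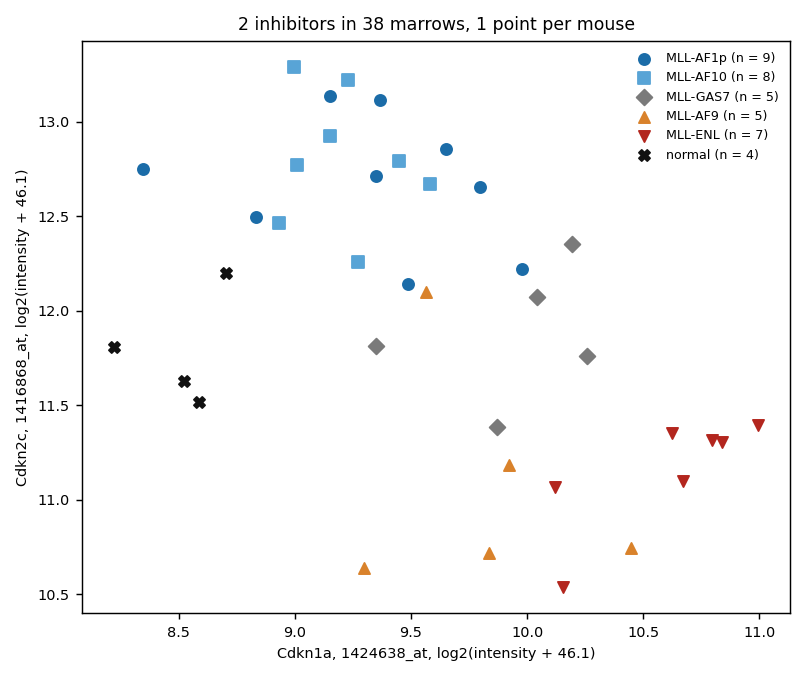
Cdkn1a (1424638_at, horizontal) and Cdkn2c (1416868_at, vertical) in each mouse, both as log2(intensity + 46.1) after median alignment and coloured by group. MLL-ENL marrows lie at the lower right, MLL-AF1p and MLL-AF10 marrows at the upper left of the leukaemias, and normal marrows at the far left.

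Cdkn2a, the INK4 gene that also encodes the p53 regulator ARF, was dim. Its probe set exceeded the median of its own array on 3 of 38 arrays, with intensities between 6.7 and 197 (median 78.5) in the leukaemias, against 38.4, 75.8, 37.4 and 124 in the normal mice. The groups overlapped, and in a fit without the filter the log2 change was 0.25 (SE 0.26, adjusted p = 0.543) and the F test gave adjusted p = 0.138. A level this close to the background of the array allows no statement on whether the gene was expressed.

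By cohort, the counts over the members were as follows, and since all 5 comparisons share the same 4 normal marrows they are not independent. In MLL-AF1p marrow 7 of 23 probe sets rose and 9 fell, against 20.6% and 11.3% of all probe sets, with a median log2 change of 0.45 over the members and 0.13 over all. In MLL-AF10 marrow 6 rose and 8 fell, against 21.9% and 10.8% of all, with medians of 0.01 and 0.14. MLL-GAS7 marrow had 5 of each, against 13.3% and 9.33% of all, with medians of 0.09 and 0.09. MLL-AF9 marrow had 6 that rose and 10 that fell, against 18.7% and 9.02% of all, with medians of -0.28 and 0.16. In MLL-ENL marrow 11 rose and 8 fell, against 25.1% and 10.3% of all, with medians of 0.61 and 0.19. The rises in MLL-ENL were all 3 probe sets each of Ccnd1, Cdk4 and Cdk6 and both of Cdkn1a.

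Without the normal marrows, the F test called 8 of the 23 member probe sets, against 6.28% of all probe sets. They were 2 of Ccnd2, 3 of Cdk6, 2 of Cdkn1a and the 1 of Cdkn2c. Against the mean of the other cohorts, 4 rose and 1 fell in MLL-ENL marrow, against 2.72% and 1.11% of all probe sets, and 2 rose and 1 fell in MLL-GAS7 marrow, against 0.921% and 2.53%. In MLL-AF1p marrow 1 rose and 1 fell, against 0.396% and 0.865% of all, and in MLL-AF10 marrow likewise 1 and 1, against 0.328% and 0.117%. In MLL-AF9 marrow none rose and 1 fell, against 0.269% and 0.0862%. The median log2 change against the other cohorts was 0.35 over the members and 0.07 over all probe sets for MLL-ENL, 0.09 and -0.07 for MLL-GAS7, -0.07 and -0.01 for MLL-AF1p, -0.19 and 0.00 for MLL-AF10, and -0.03 and 0.02 for MLL-AF9. Within array set 2, with fewer arrays, only Cdkn2c was called by the F test, where 1.46% of all probe sets were.

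**Figure D4:**
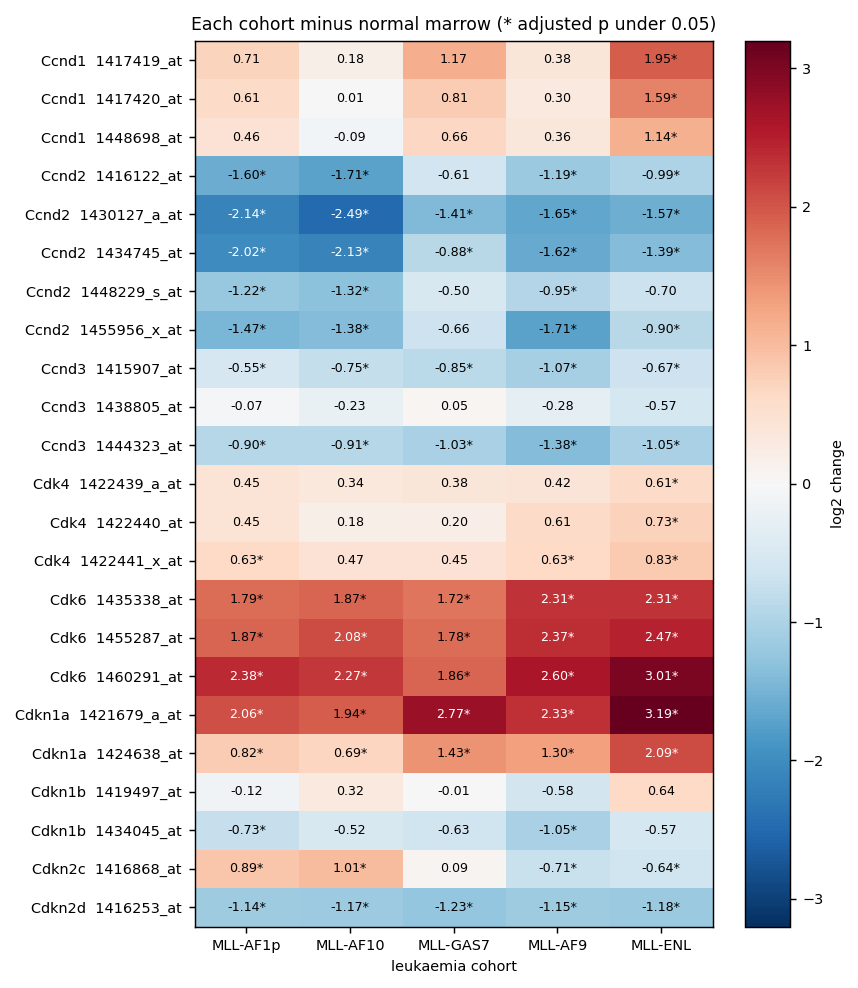
Log2 change of each tested probe set (rows) in each cohort minus normal marrow (columns), with the value printed in each cell and a star where the adjusted p was under 0.05. Cdk6 and Cdkn1a are higher and Cdkn2d is lower in all 5 columns, and the row of Cdkn2c changes sign between MLL-AF1p and MLL-AF10 on the one side and MLL-AF9 and MLL-ENL on the other.

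The pathway around these members was described with a list of 27 genes of the Rb, E2F and G1/S machinery, of which 26 were tested. In the mean of the cohorts 2 rose and 9 fell, beside 24.9% and 12.1% of all probe sets, and the list's median was -0.15 against 0.14 over all. Those that fell were Tfdp2, a binding partner of E2F factors (-3.28), the E2F factors E2f2 (-2.34), E2f4 (-0.86), E2f7 (-0.66) and E2f8 (-0.61), Rb1, the retinoblastoma protein (-1.17), and the E and A cyclins Ccne1 (-1.39), Ccne2 (-0.94) and Ccna2 (-1.16). Their adjusted p-values were at most 0.0012. The 2 that rose were Rbl2, a relative of Rb1 (0.59, adjusted p = 0.000923), and Mnat1, a subunit of the kinase that activates CDKs (0.88, adjusted p = 1.55e-05). Cdk2, the partner of the E cyclins, had a log2 change of 0.02 (adjusted p = 0.938) and E2f1 of -0.23 (0.569). By cohort the genes that rose and fell numbered 2 and 10 for MLL-AF1p (20.6% and 11.3% of all probe sets), 1 and 9 for MLL-AF10 (21.9% and 10.8%), 2 and 9 for MLL-GAS7 (13.3% and 9.33%), 2 and 8 for MLL-AF9 (18.7% and 9.02%) and 4 and 8 for MLL-ENL (25.1% and 10.3%). The F test called 1 of the 26 among the cohorts, the CIP/KIP inhibitor Cdkn1c (adjusted p = 0.0312), beside 6.28% of all probe sets.

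A list of 30 genes of S phase and mitosis, had 29 tested, of which 1 rose and 13 fell, beside 24.9% and 12.1% of all probe sets, and 15 were not called. Its median log2 change was -0.39. The largest falls were those of Ube2c, a ubiquitin-conjugating enzyme of mitotic exit (-1.52), the spindle protein Nusap1 (-1.34), the ribonucleotide reductase subunit Rrm2 (-1.23), Birc5 (survivin, -1.15) and the proliferation marker Mki67 (-1.10, adjusted p = 6.25e-07). Cdk1, the mitotic kinase, fell by 0.44 (adjusted p = 0.0351), and Mcm6, a subunit of the replicative helicase, rose by 0.56 (adjusted p = 0.0226). The helicase subunits Mcm2, Mcm3, Mcm4, Mcm5 and Mcm7 had changes of -0.22, 0.22, -0.21, 0.09 and 0.01 and did not pass. The F test called none of the 29 among the cohorts, beside 6.28% of all probe sets. The summed intensity of the list was between 75160 and 149264 in the leukaemias, against 158412 to 207448 in normal marrow, and that of the Rb and E2F list between 34011 and 54759 in the leukaemias, against 60879 to 76238 in normal marrow. Normal marrow also held the erythroid and B cell markers given above, whose part in these sums was not tested.

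**Figure D5:**
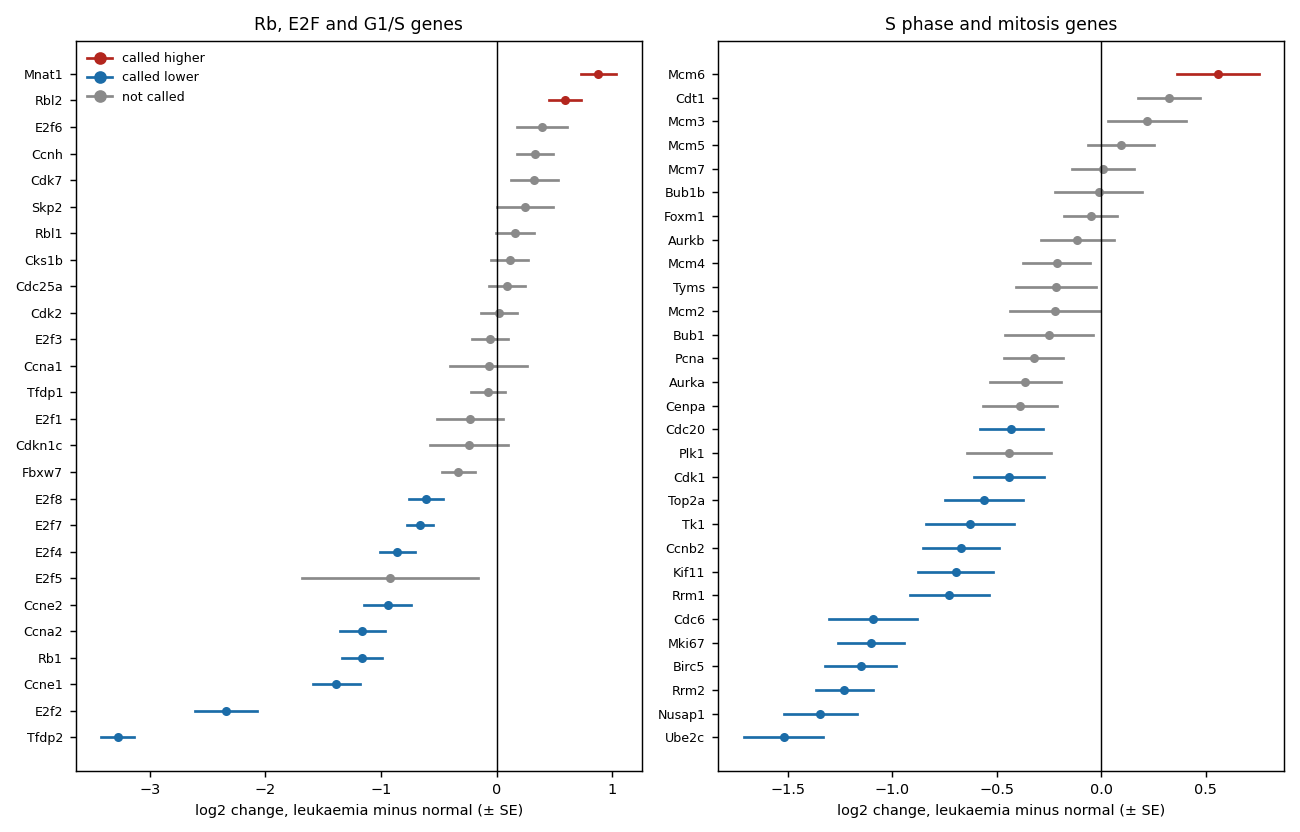
Log2 change (mean of the 5 cohorts minus normal marrow, with SE) of the tested genes of the Rb, E2F and G1/S list and of the S phase and mitosis list, coloured by call. Most called genes of both lists lie below 0, with Tfdp2 lowest at -3.28 and Mnat1 highest among the called genes at 0.88.

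Genes whose values over the 34 leukaemias were most like those of a member were found by Pearson correlation of log2 values among 13332 other genes. These are descriptions, since the points share arrays, cohorts and array sets. For Cdk6 (1435338_at) they were Myb (r = 0.83) and Fam98b (r = 0.82). Cdkn2c was most like 9630013D21Rik (r = 0.91) and Zxdb (r = 0.86), Cdkn1a (1424638_at) like Spred2 (r = 0.84) and Cers5 (r = 0.82), and Cdkn2d like Atp2c1 (r = 0.81) and Sirpa (r = 0.77). Ccnd1 (1448698_at) was most like Endod1 (r = 0.82) and, as Cdkn1a was, Spred2 (r = 0.80). Ccnd2 (1416122_at) was most like Mtmr12 (r = 0.71) and Bcr (r = 0.70), Ccnd3 (1415907_at) like Nadk (r = 0.75) and Cyba (r = 0.75), Cdk4 (1422441_x_at) like Apex1 (r = 0.91) and Fen1 (r = 0.91), and Cdkn1b (1434045_at) like Nr3c1 (r = 0.78) and Snx18 (r = 0.73). After the mean of each cohort was taken out, r was 0.71 and 0.57 for the pair named for Cdkn2c and 0.84 and 0.77 for the pair named for Cdkn2d. In the order named above, it was 0.76 and 0.75 for Cdk6, 0.69 and 0.72 for Cdkn1a, and 0.81 and 0.69 for Ccnd1. For Ccnd2 it was 0.49 and 0.49, for Ccnd3 0.80 and 0.75, for Cdk4 0.91 and 0.91, and for Cdkn1b 0.75 and 0.74.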

How the data were processed

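Bone marrow RNA of 38 mice was measured on 1 single-colour Affymetrix array each (biotin label from an in vitro transcription kit, per the labels' protocols). The deposited values are linear intensities, already scaled by the authors: with 2% cut from both ends, each array averages 500, as the values show. The sources used here name no software for them. All 38 columns were used, and no pair of arrays held the same values.

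Of 45101 probe sets, 64 are controls and were left out of the tests, 34958 carry 1 gene symbol in the platform annotation, 932 several and 9160 none. All 26 member probe sets were matched to a RefSeq gene table by Entrez identifier, which changed 0 symbols. Intensities were converted to log2(intensity + 46.1), 46.1 being the 25th percentile of all values, and arrays were aligned on their medians, which had spanned 0.537 on this scale. Probe sets above the median of their own array on at least 4 arrays were kept, which left 29004. limma 3.58.1 in R 4.3.3 fitted 1 linear model of 6 group means to all 38 arrays (32 residual degrees of freedom, 37.12 with the prior), with 2-sided moderated tests, for 4 kinds of comparison: all cohorts, weighted equally, against normal marrow; single cohorts against normal marrow; single cohorts against the other cohorts' mean; and an F test among cohorts. P-values were adjusted by Benjamini and Hochberg over all kept probe sets, and the threshold was 0.05. The fit was tested on simulated data.

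Groups and mouse numbers came from the sample labels. The members, the gene lists and the marker lists were chosen with earlier results of these data known, and lists are described by counts and medians only. All member probe sets are named; of the pathway and S phase lists any gene could be named, by its brightest probe set, and of each marker list up to 3 genes; for each member the 2 genes of highest correlation are given. In total 12 alternative settings were tried, and each of the 38 arrays was left out in turn. The setting without the 5 arrays of brightest hybridisation controls was added after seeing the data, and the way the array sets were told apart was also chosen then.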

Additional observations from a re-analysis of the deposited data

Results flagged for a closer look

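The levels of 8 member probe sets differed among the 5 cohorts by the moderated F test (limma, adjusted over all probe sets). The adjusted p was 2.9e-08 for Cdkn2c 1416868_at, 2.84e-05 for Cdkn1a 1424638_at and 0.0216 for Cdkn1a 1421679_a_at. It was 0.00273 for Ccnd2 1416122_at and 0.007 for Ccnd2 1434745_at. For Cdk6 it was 0.0137 on 1460291_at, 0.0276 on 1435338_at and 0.0477 on 1455287_at. Of these, the Cdkn2c difference was also called within array set 2 alone.

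Single mice stood apart from the rest of their group in 10 of 156 groups of values examined, and chance alone marks about 1 in 20 groups. Mouse MLL-AF9-305 was lowest of its cohort on all 3 Cdk4 probe sets, with log2 values of 10.72 on 1422439_a_at, 10.17 on 1422440_at and 10.74 on 1422441_x_at, while the nearest other MLL-AF9 mice had 11.40, 10.99 and 11.67. The same mouse had the highest Cdkn2c level of its cohort. Mouse MLL-ENL_742 was lowest of its cohort for Cdkn2c (10.54, nearest 11.07) and for Cdkn1b 1434045_at (9.72, nearest 10.47). Mouse MLL-AF10_798A was lowest for Cdkn1b 1434045_at (9.88, nearest 10.46) and MLL-GAS7_408 for Cdkn1b 1419497_at (6.47, nearest 8.48), where its intensity was 44.1. For Cdkn2d, mouse MLL-AF1p_801 was lowest (10.90, nearest 11.71). Among the normal mice, mouse 2 was highest for Ccnd1 1417420_at (8.70, nearest 8.27) and mouse 1 for Cdk4 1422441_x_at (11.22, nearest 10.87). No cause was tested for any of these values.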

How the results depend on the processing

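The calls of Cdk6, Cdkn1a, Cdkn2d, Ccnd3 1415907_at and the Ccnd2 probe sets other than 1448229_s_at in the mean of the cohorts against normal kept their direction and their call under every setting that gave a value. Leaving out 1 array at a time gave 6 to 7 member probe sets that rose and 8 to 9 that fell, 6 to 10 called by the F test, and 29.2% to 38.9% and 4.83% to 9.06% of all probe sets called by these 2 tests. Against normal it gave 14 to 17 calls in MLL-AF1p, 13 to 15 in MLL-AF10, 8 to 11 in MLL-GAS7, 13 to 17 in MLL-AF9 and 16 to 20 in MLL-ENL. Against the other cohorts it gave 1 to 3 for MLL-AF1p, 1 to 4 for MLL-AF10, 0 to 3 for MLL-GAS7, 1 to 1 for MLL-AF9 and 2 to 7 for MLL-ENL. With 1 probe set per gene, which tests only 9 members, 3 rose, 4 fell and 4 passed the F test. The calls against normal were then 8, 6, 4, 8 and 9 for MLL-AF1p, MLL-AF10, MLL-GAS7, MLL-AF9 and MLL-ENL. Those against the other cohorts were 1 for MLL-GAS7 and 2 for MLL-ENL. Without probe sets whose suffix marks shared probes, 4 rose. Calls against the other cohorts numbered 1 for MLL-AF1p with a pseudocount of 16 and without the filter. With array weights they were 1 for MLL-AF1p, 1 for MLL-GAS7 and 8 for MLL-ENL, and without the 5 arrays of brightest hybridisation controls 1 for MLL-AF1p and 1 for MLL-GAS7. Within array set 2, with 22 arrays, they were 0, 1, 0, 0 and 1 for MLL-AF1p, MLL-AF10, MLL-GAS7, MLL-AF9 and MLL-ENL, and the F test called 1 member and 1.46% of all probe sets. It called 3.33% without the filter and 11.4% with array weights, and 24.4% were called against normal without the filter. For single cohorts, the share of all probe sets called under these settings was not computed. The member counts of single cohorts given here therefore cannot be set against the whole array. Some settings held fewer arrays or probe sets, and the cause of the changed counts was not tested.

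Cdkn1b 1419497_at, not called with 0.05, changed sign to -0.0799 as deposited, -0.000379 with array weights, -0.26 with the array set as a block, -0.27 within set 2 and -0.37 without the brightest arrays. Among the fits that left out 1 array, its change was 0.00590 where the adjusted p was largest and -0.27 where it was smallest. Cdkn2c, not called with 0.13, was -0.000416 as deposited and -0.0854 with quantile normalisation. The cause was not tested. No paired analysis was possible because mouse numbers do not link mice of different groups. With 4 normal arrays, all of set 2, precision against normal is limited by them, and probe sets near background, such as that of Cdkn2a, allow no fold.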

Other observations

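The Ccnd3 probe set 1444323_at was lower on arrays of set 1 than on arrays of set 2 in each cohort. In MLL-AF1p marrow its intensity was between 339.5 and 471 on the 4 arrays of set 1 and between 629 and 1179 on the 5 of set 2. In MLL-ENL marrow it was between 338 and 405.7 on 4 arrays of set 1 and between 562 and 988 on 3 of set 2, and in MLL-GAS7 marrow between 278 and 464 on 2 arrays and between 613 and 861 on 3. The MLL-AF9 arrays gave 128 to 443 in set 1 and 676 to 799.6 in set 2, and the MLL-AF10 arrays, whose sets overlapped, gave 391 to 705 and 473 to 846. All normal arrays belong to set 2 and gave 1060.1 to 1371. The labels do not say what separates the sets, and it was not tested.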
